A study of Mus musculus with 36 samples.

Results

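The CXC chemokine genes Cxcl1, Cxcl2, Cxcl3, Cxcl9, Cxcl10, Cxcl16 and Pf4 were described in macrophages and CD8+ T cells sorted from mouse tumours. They were picked by name from the deposited table, with earlier results of these data known, and make up 7 of its 24781 genes. CXC chemokines are small proteins that attract leukocytes through G protein-coupled receptors, and in tumours they shape which immune cells enter and where they stay. Cxcl1, Cxcl2 and Cxcl3 act on Cxcr2 and draw neutrophils, whereas Cxcl9 and Cxcl10 are induced by interferon-gamma and draw activated T cells through Cxcr3. Cxcl16 is made as a membrane-bound protein that Adam10 and Adam17 can shed and that binds Cxcr6, and Pf4 is a platelet granule chemokine that some macrophages also transcribe.

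The libraries came from MC38 tumours, a mouse colon adenocarcinoma line grown in the skin, taken on day 7 from adult mice. The groups were WT mice, muMt-/- mice, a strain without mature B cells, and muMt-/- mice carrying an implanted pellet of GABA, the metabolite the study traced to B cells. The sample records list no treatment for the WT and untreated muMt-/- mice, while the study describes placebo pellets. Each of the 36 libraries held 100 sorted cells, either CD45+CD11b+F4/80high tumour-associated macrophages (TAMs) or CD45+TCRbeta+CD8+ T cells (CD8), with 6 libraries for each of 3 groups per cell type. The study describes libraries of single mice and the records call them independent preparations, a wording that can be read as a separate mouse for every library or for every library of a cell type.

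Values are numbers of distinct mRNA molecules, counted by molecular barcodes and divided by library scaling factors (normalised numbers). For the members these factors were set within each cell type, and for the marker sums and the percentages of the TAM level over all 36 libraries, so values on these scales are not to be set side by side. TAM libraries held between 206394 and 304100 molecules in WT mice (median 242756), between 100254 and 253608 in muMt-/- mice (median 149960) and between 151856 and 262606 in GABA-treated mice (median 192775). CD8 libraries were shallower, with medians of 42065.5 in WT, 67121.5 in muMt-/- and 80283 in GABA-treated mice, and the shallowest held 22896 molecules. A chemokine at 0 in a CD8 library may therefore have been missed at this depth.

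Markers of the labelled cell type were detected in every group, while some CD8 libraries also held many macrophage transcripts. All 14 macrophage markers were detected in TAMs of each group, and Apoe, a lipid carrier, was the most abundant. Their summed normalised number was 1337 to 1772 in WT, 1286 to 1656 in muMt-/- and 1031 to 1502 in GABA-treated mice. T cell markers summed to at most 4.28 in any TAM library and in CD8 libraries to between 310 and 605 in WT, 178 and 492 in muMt-/- and 222 and 554 in GABA-treated mice. In CD8 muMt-/- replicate 1 and CD8 GABA replicate 1 the macrophage marker sums of 480 and 293 exceeded the T cell sums of 178 and 222. Platelet and megakaryocyte markers, which bear on Pf4, summed to at most 1.84 in any TAM library, and 7 of 10 were at 0 in WT TAMs, among them Itga2b, Gp9 and Gp6. The neutrophil list, whose cells respond to Cxcl1, Cxcl2 and Cxcl3 and can also transcribe Cxcl2, had medians of 3.83, 13.1 and 8.18 in TAMs of WT, muMt-/- and GABA-treated mice, with Csf3r the most abundant and Retnlg, Ngp and Camp at 0 in each group.

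In TAMs of muMt-/- mice the neutrophil-attracting chemokines Cxcl2 and Cxcl3 were higher than in WT mice, while the T cell-attracting Cxcl9 and Cxcl10 had lower medians that did not pass the test. With GABA treatment the Cxcl2 and Cxcl3 medians lay nearer to those of WT mice, but edgeR placed no member past the threshold between GABA-treated and untreated muMt-/- mice. Each library is a bulk of sorted cells, so fewer transcribing cells and less RNA per cell cannot be told apart.

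Cxcl2, a neutrophil attractant that macrophages release early in inflammation, had normalised numbers of 58.0 to 129 in WT TAMs (median 88.0), 119 to 216 in muMt-/- TAMs (median 186) and 56.5 to 130 in TAMs of GABA-treated mice (median 98.3). All but 1 muMt-/- library lay above every WT library and above every GABA-treated library, and the WT and GABA-treated groups overlapped almost fully. Its log2 fold change from WT to muMt-/- was 0.87 (SE 0.20, n = 6 and 6, adjusted p = 0.0123), with 5 of 6 muMt-/- libraries above all WT libraries. Without WT replicate 1, the lowest WT library, the adjusted p was 0.0531. From untreated to GABA-treated muMt-/- mice the log2 fold change was -0.84 (SE 0.20, adjusted p = 0.117 by edgeR and 0.00815 by DESeq2), and between GABA-treated and WT mice it was 0.03 (SE 0.20, adjusted p = 0.991). The study counts Cxcl2 among its differential TAM genes, which were chosen on these same libraries, so that choice is not independent evidence.

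Cxcl3, a close relative of Cxcl2 that acts on the same receptor, was sparse, with normalised numbers of 0 to 5.81 in WT TAMs (median 0.727), 1.88 to 12.4 in muMt-/- TAMs (median 9.25) and 0 to 6.41 in TAMs of GABA-treated mice (median 3.36). It was at 0 in 3 WT libraries and 1 GABA-treated library, and 4 muMt-/- libraries lay above all libraries of both other groups. Those 4, muMt-/- replicates 2, 3, 4 and 6, had neutrophil marker sums of 14.8, 12.7, 13.5 and 14.1, against 6.79 and 3.68 in replicates 1 and 5. WT replicate 5, with the highest sum of 21.3, had 2.51 for Cxcl3, and muMt-/- replicate 1 had 194 for Cxcl2. Csf3r had log2 fold changes of 0.92 (SE 0.37, adjusted p = 0.220) from WT to muMt-/- and -1.07 (SE 0.40, adjusted p = 0.377) with GABA treatment. The list as a whole did not share these signs, with 2 of 4 tested genes above 0 in each comparison and medians of 0.24 and 0.10. S100a8 had 0.79 (SE 0.73) and -0.01 (SE 0.73), and S100a9 had -0.47 (SE 0.82) and 0.55 (SE 0.84). Whether neutrophil RNA bears on Cxcl2 and Cxcl3 was not tested. The 6 libraries of each group held 14, 39 and 22 Cxcl3 molecules in total. Its log2 fold change from WT to muMt-/- was 2.05 (SE 0.57, adjusted p = 0.0454), and the change passed the threshold in only 3 of the 12 fits that left out 1 library of these groups. DESeq2 gave it a log2 fold change of 2.19 and, after its own filter on low counts, no adjusted p. From untreated to GABA-treated muMt-/- mice its log2 fold change was -1.12 (SE 0.53, adjusted p = 0.570). Cxcl3 stands in the TNF target lists that the study drew from these libraries, which is not independent evidence either.

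Cxcl1, a further Cxcr2 ligand, was scarce in all groups, with medians of 4.64 in WT, 5.62 in muMt-/- and 2.36 in GABA-treated mice and a highest value of 9.42. The groups overlapped, and the log2 fold changes of 0.23 (SE 0.43) from WT to muMt-/- and -1.16 (SE 0.51) with GABA treatment had adjusted p-values of 0.875 and 0.517. No WT library lay outside the range of muMt-/- libraries.

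Cxcl9, which draws T cells through Cxcr3, had normalised numbers of 214 to 383 in WT TAMs (median 287), 170 to 319 in muMt-/- (median 249) and 106 to 351 in GABA-treated mice (median 271). The groups overlapped widely, and GABA replicates 1 and 3 were the lowest of the 18 TAM libraries. Its log2 fold change was -0.29 (SE 0.21, adjusted p = 0.570) from WT to muMt-/- and 0.02 (SE 0.21, adjusted p = 0.989) with GABA treatment, where the sign turned under other scalings.

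Cxcl10, the other Cxcr3 ligand, ranged from 81.3 to 228 in WT TAMs (median 190), from 62.8 to 165 in muMt-/- TAMs (median 104) and from 50.8 to 166 in TAMs of GABA-treated mice (median 110). In WT mice, 4 libraries lay above every library of both other groups, while the remaining WT libraries fell inside their ranges. Its log2 fold change from WT was -0.68 in muMt-/- mice (SE 0.25, adjusted p = 0.143) and -0.64 in GABA-treated mice (SE 0.24, adjusted p = 0.540), comparisons that share the WT libraries. With no filter on low values the adjusted p-values for Cxcl10 were 0.00261 and 0.0175.

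Cxcl16, the membrane-bound ligand of Cxcr6, ranged from 91.6 to 120 in WT TAMs (median 103), from 54.4 to 109 in muMt-/- TAMs (median 91.4) and from 57.1 to 132 in GABA-treated mice (median 107). The groups overlapped, and the lowest muMt-/- and GABA-treated libraries lay well under the WT range. The log2 fold changes were -0.28 (SE 0.18, adjusted p = 0.473) from WT to muMt-/- and 0.24 (SE 0.18, adjusted p = 0.761) with GABA treatment.

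Pf4, the platelet granule chemokine, was present in all 18 TAM libraries, at 10.2 to 29.5 in WT (median 22.5), 13.8 to 60.3 in muMt-/- (median 28.5) and 2.01 to 25.2 in GABA-treated mice (median 18.9). The highest value belonged to muMt-/- replicate 1 and the lowest to GABA replicate 5, and the groups overlapped. Its log2 fold change was 0.43 (SE 0.30, adjusted p = 0.535) from WT to muMt-/- and -0.74 (SE 0.31, adjusted p = 0.497) with GABA treatment.

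**Figure D1:**
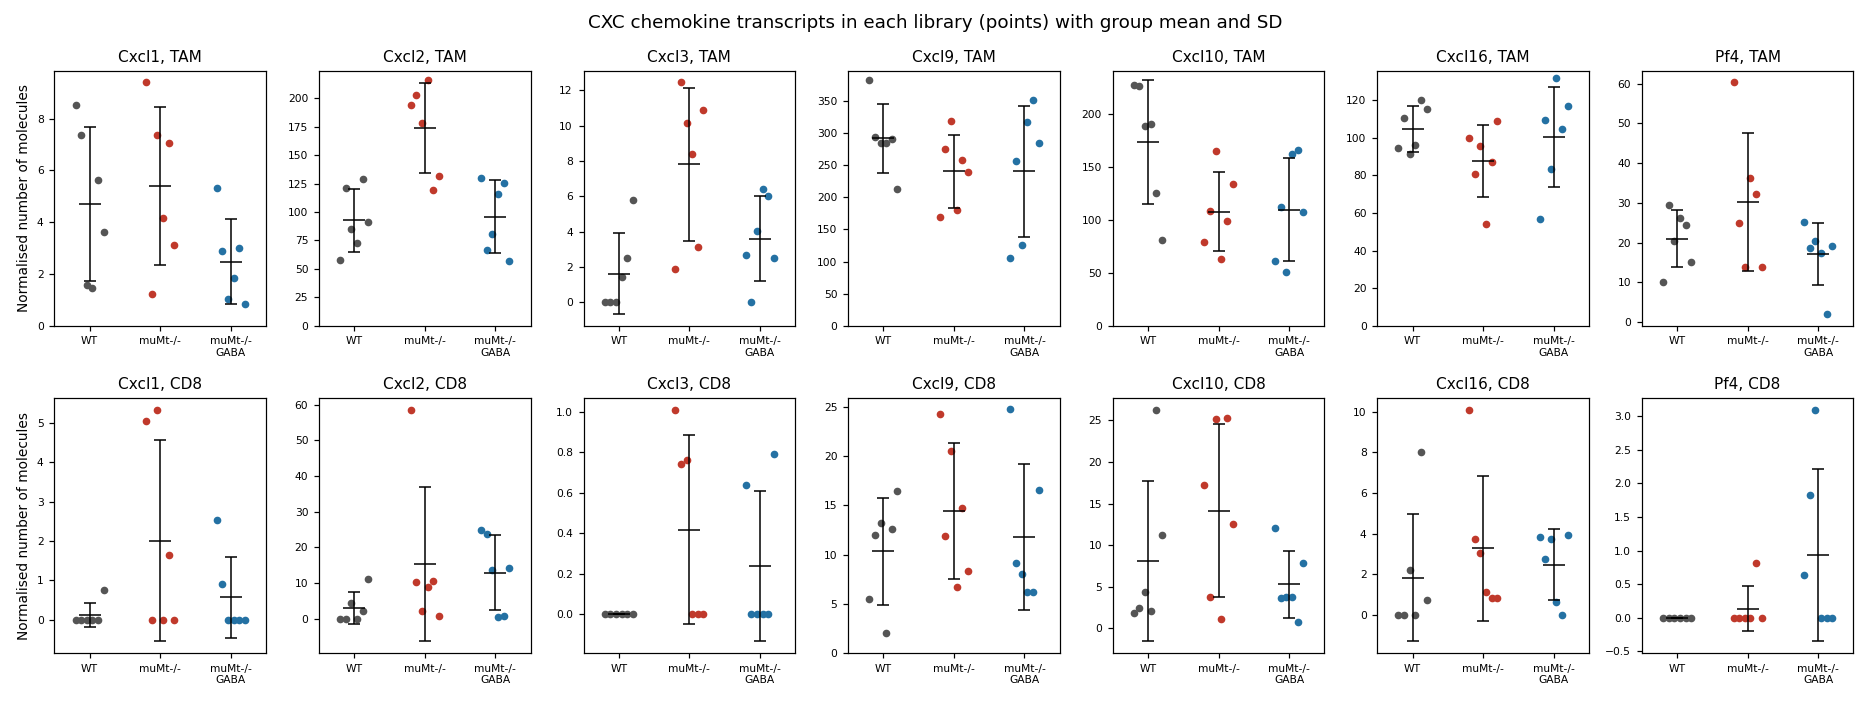
Normalised number of molecules of each CXC chemokine in each TAM library (top) and CD8 library (bottom), by group; points are libraries, bars the group mean and SD over 6 libraries, and each panel has its own axis. In TAMs, 5 of 6 muMt-/- libraries lie above all WT libraries for Cxcl2 and 4 for Cxcl3, whereas the groups overlap more widely for Cxcl9 and Cxcl16.

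Read against all genes, edgeR called 2 of the 7 members between muMt-/- and WT TAMs, where it called 194 of 9469 genes (2.05%), and 3 members at an unadjusted p under 0.05 against 14.9% of genes. DESeq2 called 1 member against 2.67% of genes, and 3 at an unadjusted p against 11.7%. Between GABA-treated and untreated muMt-/- TAMs edgeR called 0 of 7 members and 0.0211% of genes, with 4 members at an unadjusted p under 0.05 against 8.46% of genes. DESeq2 called 1 member there, Cxcl2, against 0.634% of genes, and 3 at an unadjusted p against 6.13%. Between GABA-treated muMt-/- and WT TAMs edgeR called 0 of 7 members and 0.0739% of genes, with 1 at an unadjusted p against 7.02% of genes. DESeq2 called 0 there against 0.148% of genes, and 1 at an unadjusted p against 4.65%. In TAMs DESeq2's filter on low counts left Cxcl1 and Cxcl3, and Pf4 with GABA treatment, without an adjusted p. The median log2 fold change of the members was 0.23 from WT to muMt-/- and -0.74 with GABA treatment, beside -0.05 and 0.06 over all genes tested. Because the members were chosen with earlier results of these data known, these comparisons with all genes are descriptions and not independent tests.

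**Figure D2:**
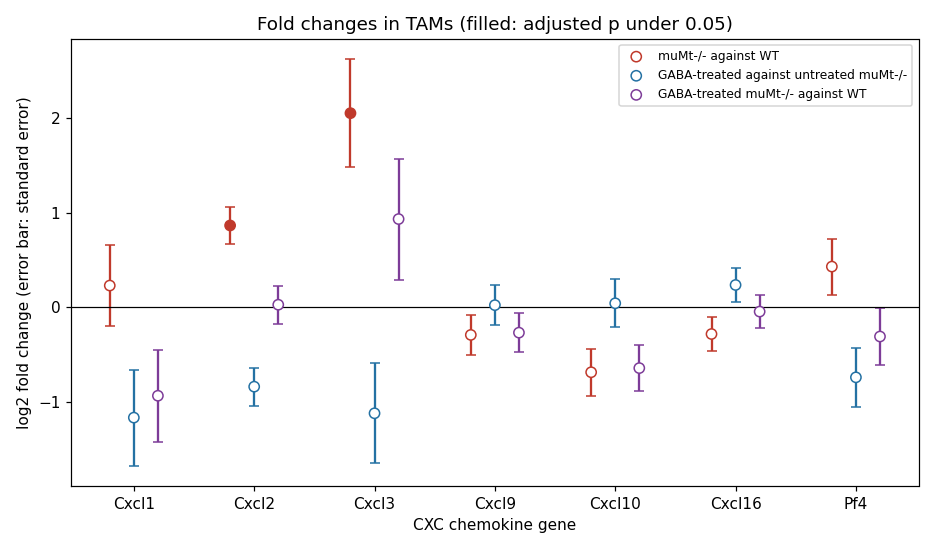
Log2 fold change of each CXC chemokine in TAMs from the edgeR fit for the 3 comparisons of groups; bars are standard errors and filled points have an adjusted p under 0.05. Cxcl2 at 0.87 and Cxcl3 at 2.05, from WT to muMt-/-, are the filled points, and the other fold changes did not pass the test.

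Of 14 macrophage markers tested between muMt-/- and WT TAMs, edgeR called 1 higher and 3 lower, where it called 2.05% of all genes, and the other 10 did not pass. Itgam, the integrin subunit CD11b used in the sort, rose by a log2 fold change of 0.66 (SE 0.17, adjusted p = 0.0277). Lyz2, the macrophage lysozyme, had -0.74 (SE 0.19, adjusted p = 0.0241), and the complement genes C1qb and C1qc had -0.62 (SE 0.17, adjusted p = 0.0414) and -0.57 (SE 0.16, adjusted p = 0.0483). Whether these shifts bear on Cxcl2 and Cxcl3 was not tested.

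Levels of different genes were set side by side as counted and per length of transcript, because the values count molecules by barcode and whether a count grows with transcript length was not tested. As counted, the mean normalised number in WT TAMs was 292 for Cxcl9 (SD 53.9), 174 for Cxcl10 (SD 58.5), 105 for Cxcl16 (SD 12.1), 92.8 for Cxcl2 (SD 27.6), 21.0 for Pf4 (SD 7.22), 4.70 for Cxcl1 (SD 2.97) and 1.63 for Cxcl3 (SD 2.29). On that scale Pf4 lay below Cxcl2 and Cxcl16 by more than their spreads, whereas Cxcl2 and Cxcl16 did not differ beyond theirs. Per kilobase of the longest annotated transcript, the mean normalised number in WT TAMs was 101 for Cxcl9 (SD 18.7), 77.8 for Cxcl10 (SD 26.2), 44.9 for Cxcl2 (SD 13.3), 38.8 for Cxcl16 (SD 4.49) and 35.8 for Pf4 (SD 12.3). Cxcl1 and Cxcl3 followed far below at 2.51 (SD 1.59) and 0.466 (SD 0.655). Per kilobase Cxcl9 and Cxcl10 did not differ beyond their spread between libraries, nor did Cxcl2, Cxcl16 and Pf4 among themselves. Within every WT library, though, Cxcl9 lay above Cxcl10 on this scale, if hardly so in replicate 2. Differences within libraries were not tested. In muMt-/- TAMs Cxcl2 reached 84.1 per kilobase (SD 19.1) beside 83.1 for Cxcl9 (SD 19.8), with Pf4 at 51.4 (SD 29.5) and Cxcl10 at 48.5 (SD 16.6). In GABA-treated mice Cxcl9 stood at 83.2 (SD 35.1), Cxcl10 at 49.3 (SD 21.8) and Cxcl2 at 46.4 (SD 15.5), an order that these spreads between libraries do not separate. Within every muMt-/- and GABA-treated TAM library Cxcl9 lay above Cxcl10 on this scale. In WT CD8 cells, per kilobase of the longest transcript, Cxcl10 stood at 3.61 (SD 4.31), Cxcl9 at 3.57 (SD 1.87), Cxcl2 at 1.45 (SD 2.14) and Cxcl16 at 0.677 (SD 1.17), within their spreads between libraries. Within every WT CD8 library Cxcl9 lay above Cxcl2 and Cxcl16, and Cxcl10 above Cxcl16. Because the longest models of Cxcl1, Cxcl2, Cxcl3 and Cxcl10 are unspliced, the scale was also set by protein-coding transcripts, a choice made after seeing the data. Per coding-transcript kilobase Cxcl10 stood at 128 (SD 43.3) in WT TAMs beside Cxcl9 at 101 (SD 18.7), Cxcl1 at 4.94 (SD 3.12) and Cxcl3 at 1.60 (SD 2.26). In muMt-/- TAMs that scale put Cxcl10 at 79.9 (SD 27.4), above Pf4 but within their spreads, and in GABA-treated mice at 81.3 (SD 35.9). The orders within libraries told above did not all hold on the coding scale. There WT TAM replicate 1 had 168 for Cxcl10 and 133 for Cxcl9, and WT CD8 replicate 6 had 6.06 for Cxcl2 and 5.72 for Cxcl9.

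Over the 18 TAM libraries, 21 pairs of members were correlated on the log2 scale, and 1 pair passed an adjusted permutation p of 0.05. Cxcl9 and Cxcl10, the Cxcr3 ligands, varied together with Pearson's r = 0.871 (permutation p = 1e-05, the lowest value reachable with 100000 permutations and thus the smallest they can give, adjusted p = 0.00021) and Spearman's rho = 0.837 (adjusted p = 0.00042). Within groups r was 0.810 in WT, 0.862 in muMt-/- and 0.952 in GABA-treated mice, and without the 2 libraries farthest from the median of Cxcl9 it was 0.833. Libraries high in Cxcl9 were thus high in Cxcl10 in every group. GABA replicates 1 and 3, lowest in Cxcl9 (106 and 126) and Cxcl10 (61.1 and 50.8), also had the lowest TAM macrophage marker sums, 1031 and 1195. By contrast, muMt-/- replicate 1 had the lowest Cxcl9 of its group, 170, and the highest marker sum there, 1656. Whether macrophage marker RNA bears on this pair was not tested. Cxcl2 and Cxcl3 had r = 0.603 (permutation p = 0.00879, adjusted p = 0.0679) and rho = 0.627 (adjusted p = 0.0699), with r = 0.367 on deviations from the group means and 0.25 in WT, 0.185 in muMt-/- and 0.592 in GABA-treated mice. Cxcl9 and Cxcl16 had r = 0.608 (permutation p = 0.0097, adjusted p = 0.0679) and rho = 0.420 (adjusted p = 0.358), with r = 0.610 on deviations from the group means and 0.377 without the 2 farthest libraries. Its r was -0.492 in WT, 0.336 in muMt-/- and 0.898 in GABA-treated mice, so the sign was not shared by the groups. Of the 21 coefficients 9 were positive, and those of Pf4 with Cxcl9 and Cxcl10 were -0.457 and -0.380, with adjusted p-values of 0.275 and 0.332.

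Among 5305 genes with a mean normalised number above 5 in TAMs, the genes most like 5 members over the 18 libraries were listed as a description. Cxcl1 and Cxcl3, with means of 4.19 and 4.35, lay below this cut and were left out. Cxcl2 lay nearest to Csf2rb (r = 0.848), the shared receptor subunit for GM-CSF and IL-3, followed by Setd2 and Rbm47. Cxcl9 lay nearest to Elk3 (r = 0.861) and then to Ly6e and Gnb2. Cxcl10 lay nearest to Ywhah (r = 0.845), followed by the monocyte chemoattractants Ccl7 (r = 0.831) and Ccl2 (r = 0.819). Cxcl16 lay nearest to the lysosomal protease gene Ctsh (r = 0.918), to Mpeg1, which encodes a pore-forming macrophage protein, and to the proteasome activator gene Psme1. Pf4 lay nearest to Bet1l (r = 0.803), Ccdc82 and Golga4.

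All members but Cxcl16 lie on chromosome 5 of the GRCm38.p6 build. Pf4 (chr5:90772435-90773383), Cxcl3 (chr5:90786101-90788093), Cxcl1 (chr5:90891245-90893121) and Cxcl2 (chr5:90903899-90905938) sit within 133504 bp, and Cxcl9 (chr5:92321331-92328079) and Cxcl10 (chr5:92346638-92348889) lie 1415392 bp further on, with 18558 bp between them. Cxcl16 lies alone at chr11:70454389-70459984. Within the gene cluster, the genes that passed the test in TAMs, Cxcl2 and Cxcl3, are 1 at each side of Cxcl1, which did not. The coding transcripts of Cxcl2 and Cxcl3 share 80 windows of 31 bases, out of 986 in Cxcl3 and 1829 in Cxcl2. Windows were taken at every base and overlap, so 80 is not a number of separate segments. No other pair of members shares any window. Whether reads from the shared sequence were assigned to the wrong gene was not tested.

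**Figure D3:**
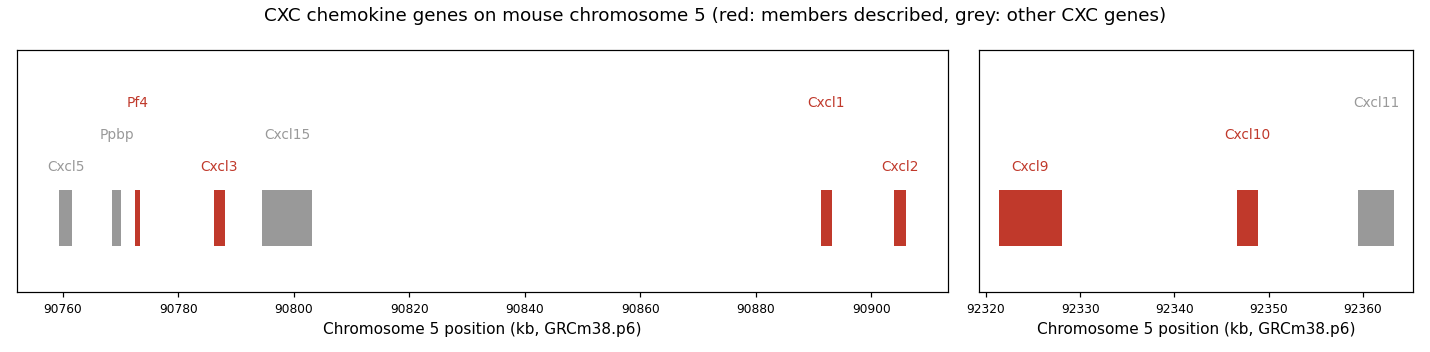
Positions of CXC chemokine genes on mouse chromosome 5 (kb, GRCm38.p6), drawn to scale within each panel, with the 6 members on this chromosome in red and neighbouring CXC genes in grey. Pf4, Cxcl3, Cxcl1 and Cxcl2 share a cluster of 133504 bp, and Cxcl9 and Cxcl10 lie together 18558 bp apart.

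Promoters are shown for the pair that passed the test in TAMs and for the pair that varied together, so that their shared letters can be seen. RefSeq promoter sequences (GRCm38.p6, 250 bases before to 50 after the start) matched 6 of the 7 members, all except Cxcl16. Capitals mark NF-kB-like stretches, GGGNNNNNCC on either strand, and ISRE-like stretches, GAAA and GAAA with 2 bases between them on either strand, where N is any base and overlapping matches are joined. Of 32851 promoters of this length, 50.8% hold the NF-kB-like letters and 3.44% the ISRE-like letters. The NF-kB-like stretches number 2 in Cxcl2, 3 in Cxcl3, 1 in Cxcl9 and 2 in Cxcl10, and the ISRE-like stretch occurs 1 time, in Cxcl10. Cxcl1 holds 2 NF-kB-like stretches and Pf4 holds 0. The windows are chr5:90903649-90903948 for Cxcl2 and chr5:90785851-90786150 for Cxcl3 on the plus strand, and chr5:92328030-92328329 for Cxcl9 and chr5:92348840-92349139 for Cxcl10 on the minus strand.
Cxcl2: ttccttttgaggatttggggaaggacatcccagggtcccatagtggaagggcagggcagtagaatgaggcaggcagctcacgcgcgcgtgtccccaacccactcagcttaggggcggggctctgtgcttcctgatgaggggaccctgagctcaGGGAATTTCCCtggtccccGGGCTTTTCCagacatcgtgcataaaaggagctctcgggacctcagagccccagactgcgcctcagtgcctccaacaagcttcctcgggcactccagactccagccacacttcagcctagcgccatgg
Cxcl3: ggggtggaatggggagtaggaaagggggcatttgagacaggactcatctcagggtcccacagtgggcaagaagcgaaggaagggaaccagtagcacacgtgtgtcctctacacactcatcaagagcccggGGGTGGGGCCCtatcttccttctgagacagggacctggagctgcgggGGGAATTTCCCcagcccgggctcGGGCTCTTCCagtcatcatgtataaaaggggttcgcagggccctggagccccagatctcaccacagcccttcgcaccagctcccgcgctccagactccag
Cxcl9: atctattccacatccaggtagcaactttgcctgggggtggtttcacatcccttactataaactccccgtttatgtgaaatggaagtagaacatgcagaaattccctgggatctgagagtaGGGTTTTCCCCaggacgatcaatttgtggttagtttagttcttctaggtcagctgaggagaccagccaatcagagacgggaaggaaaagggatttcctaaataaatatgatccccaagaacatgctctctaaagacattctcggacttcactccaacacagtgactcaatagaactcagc
Cxcl10: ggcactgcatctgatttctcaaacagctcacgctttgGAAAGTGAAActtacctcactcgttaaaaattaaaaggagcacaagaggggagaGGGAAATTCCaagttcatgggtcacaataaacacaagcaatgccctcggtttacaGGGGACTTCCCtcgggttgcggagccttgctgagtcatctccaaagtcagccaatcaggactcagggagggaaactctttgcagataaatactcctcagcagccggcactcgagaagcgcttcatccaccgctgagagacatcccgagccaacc

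Other genes of these pathways were read in TAMs beside the members, and edgeR called 0 genes of each of the 5 lists between muMt-/- and WT TAMs. Of 8 other CXC ligands 3 were tested, with a median log2 fold change of -0.73. Cxcl14, an epithelial and stromal chemokine, had medians of 19.8 in WT, 9.36 in muMt-/- and 7.77 in GABA-treated mice. Its log2 fold change from WT to muMt-/- was -1.04 (SE 0.33, adjusted p = 0.0873). Cxcl11 had 0.39, and Cxcl12, with a median of 0 in WT libraries, had -0.73. Of 8 receptors 2 were tested, Cxcr4, the receptor of Cxcl12, at 0.77 (SE 0.24, adjusted p = 0.0784) and Cxcr2, the receptor of Cxcl1, Cxcl2 and Cxcl3, at 0.69 (SE 0.54, adjusted p = 0.615).

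The NF-kB list, which holds inducers of Cxcl1, Cxcl2 and Cxcl3 such as Tnf and Il1b, had 15 of 16 genes tested between muMt-/- and WT TAMs, with 12 log2 fold changes above 0 and a median of 0.29. Il1b, an inflammatory cytokine gene, had medians of 160 in WT, 290 in muMt-/- and 177 in GABA-treated mice and a log2 fold change of 0.62 (SE 0.19, adjusted p = 0.0797). Nfkbiz, a nuclear NF-kB cofactor, and Tnfrsf1a, a TNF receptor, had 0.36 and 0.31. With GABA treatment, 14 of the 15 log2 fold changes of this list lay below 0, with a median of -0.29, and Il1b had -0.62 (SE 0.19, adjusted p = 0.278). These comparisons share the untreated muMt-/- libraries, and edgeR called 0 genes of the list in either. The medians over all genes tested were -0.05 from WT to muMt-/- and 0.06 with GABA treatment. How many of all genes lay on each side of 0 was not counted.

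The interferon-gamma list, upstream of Cxcl9 and Cxcl10, had all 11 genes tested in TAMs. From WT to muMt-/- 8 log2 fold changes lay above 0, with a median of 0.17, while those of Cxcl9 and Cxcl10 lay below 0. Irf8, a myeloid transcription factor, had 0.50 (SE 0.16, adjusted p = 0.0873), and Irf1, an interferon-induced transcription factor, had -0.23. With GABA treatment 7 of the 11 lay below 0, with a median of -0.25. The shedding proteases of Cxcl16 were both tested, Adam10 at 0.02 and Adam17 at 0.64 (SE 0.23, adjusted p = 0.152) from WT to muMt-/-, and at -0.07 and -0.39 with GABA treatment. With GABA treatment the other ligands had a median of -0.19 and the receptors -0.47, and edgeR called 0 genes of any of the 5 lists there.

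In WT mice most members were lower in CD8 libraries than in TAM libraries. There edgeR called 5 of 7 members higher in TAMs than in CD8 cells. Pf4, which is among the 5, and Cxcl3 had means of only 0.354 and 0.219 over the CD8 libraries, on the CD8 scale. They passed the filter of the joint fit through their TAM values, so for them this filter favoured a higher level in TAMs. Of 8477 genes it called 22.7% in either direction, 1420 higher in TAMs and 508 lower. The median log2 ratio of all genes was 0.36 with this scaling and 0.20 with DESeq2's size factors. Cxcl16 had a log2 ratio of 4.32 (SE 0.44, adjusted p = 1.78e-11), Cxcl9 of 3.42 (SE 0.34, adjusted p = 4.62e-12), Cxcl2 of 3.16 (SE 0.60, adjusted p = 3.68e-05) and Cxcl10 of 2.84 (SE 0.43, adjusted p = 5.45e-07). For Pf4, with 166 molecules in WT TAMs and 0 in WT CD8 cells, the share of all molecules was at least 9.91-fold higher in TAMs, taking 3 molecules over the CD8 group as the floor. Cxcl1 had 36 molecules in TAMs and 1 in CD8 cells, a ratio of shares of 6.44 with an exact 95% Clopper-Pearson interval of 1.09 to 262, and its adjusted p was 0.0800. For Cxcl3, with 14 molecules against 0, a difference was not detectable at this depth. Intervals and floors cover counting error only.

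Of 8 receptors 4 were tested between WT TAMs and CD8 cells, and 2 were called, both higher in CD8 cells. Cxcr6, the receptor of Cxcl16, was lower in WT TAMs than in CD8 cells by a log2 ratio of -5.92 (SE 0.50), and Cxcr3, the receptor of Cxcl9 and Cxcl10, by -4.37 (SE 0.80). Ifng, which encodes interferon-gamma, had a log2 ratio of -10.97 (SE 0.65). Of the 11 interferon-gamma genes 5 were called higher in TAMs and 3 higher in CD8 cells. Adam10 and Adam17, which shed Cxcl16, were higher in TAMs by a log2 ratio of 2.0 (SE 0.28) and 2.94 (SE 0.47). Cxcl14 was higher in TAMs by 3.46 (SE 0.68), the 1 called of 2 other ligands tested, and of 15 NF-kB genes 4 were called higher in TAMs and 5 higher in CD8 cells.

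Within CD8 libraries 4 members had a mean normalised number above 1 and were tested. Cxcl2, the neutrophil attractant, ranged from 0 to 11.3 in WT (median 1.14), from 0.833 to 58.7 in muMt-/- (median 9.69) and from 0.620 to 24.8 in GABA-treated mice (median 13.9). It was at 0 in 3 WT libraries, and muMt-/- replicate 1 stood far above the other libraries. Cxcl9 had medians of 12.3, 13.3 and 8.60 and Cxcl10 of 3.41, 14.8 and 3.72 in WT, muMt-/- and GABA-treated mice, and their groups overlapped. For Cxcl10, 4 muMt-/- libraries lay above all GABA-treated libraries. Cxcl16 had medians of 0.376, 2.09 and 3.23 and was at 0 in 3 WT libraries. Cxcl1, Cxcl3 and Pf4 were too scarce to test, with 1, 14 and 5 molecules of Cxcl1, 0, 3 and 2 of Cxcl3, and 0, 1 and 8 of Pf4 over the WT, muMt-/- and GABA-treated groups.

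The edgeR fit called 0 of the 4 members in any CD8 comparison. From WT to muMt-/- it called 0% of genes, with 1 member at an unadjusted p under 0.05 against 6.17% of genes, and DESeq2 called 0 of 4 and 0% of genes, with 1 at an unadjusted p against 3.33%. From untreated to GABA-treated muMt-/- mice edgeR called 0 of 4 and 0% of genes, with 1 at an unadjusted p against 3.71%, and DESeq2 called 0 of 4 and 0%, with 1 at an unadjusted p against 2%. Between GABA-treated muMt-/- and WT mice edgeR called 0 of 4 and 0% of genes, with 1 at an unadjusted p against 6.89%, and DESeq2 called 0 of 4 against 0.015% of genes, with 0 at an unadjusted p against 3.33%. The members at an unadjusted p under 0.05 in edgeR were Cxcl2 in both comparisons with WT and Cxcl10 between the muMt-/- groups. Cxcl2 had a log2 fold change of 1.93 (SE 0.76, adjusted p = 0.643) from WT to muMt-/- and 1.81 (SE 0.76, adjusted p = 0.617) from WT to GABA-treated mice, and Cxcl10 had -1.35 (SE 0.50, adjusted p = 0.999) with GABA treatment. The Cxcl2 values varied with single libraries, with log2 fold changes of 0.85 without muMt-/- replicate 1 and 3.54 without WT replicate 6 in the comparison of muMt-/- with WT, and of 3.42 without WT replicate 6 in that of GABA-treated with WT mice. These libraries also held the highest neutrophil marker sums of the CD8 libraries, 26.3 in muMt-/- replicate 1 and 22.6 in WT replicate 6, where the other WT libraries were at 0, and the part of neutrophil RNA was not tested. The median of all genes was 0.21 between GABA-treated and WT mice by TMM and 0.06 by size factors, so these CD8 values are to be read against that shift.

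Macrophage markers were read in the CD8 libraries beside the chemokines. Their summed normalised number was 0 to 98.5 in WT (median 17.5), 49.4 to 480 in muMt-/- (median 80.1) and 11.97 to 293 in GABA-treated mice (median 114), and the highest, 480, was muMt-/- replicate 1. Adgre1, which encodes F4/80, and Mrc1 were at 0 in WT CD8 cells, and Cd14 was the most abundant marker there. Of 14 markers 12 were tested from WT to muMt-/-, edgeR called 0, and all 12 log2 fold changes lay above 0. The medians of Cxcl2 and Cxcl16 followed the order of the marker medians over the groups, and those of Cxcl9 and Cxcl10 did not. By means the markers had 28.0, 150 and 135, an order that Cxcl2, Cxcl16 and Cxcl9 (10.3, 14.4 and 11.8) shared and Cxcl10 (8.05, 14.2 and 5.31) did not. As a percent of the level in TAMs of the same group, the marker sum reached 1.77% in WT, 10.6% in muMt-/- and 10.1% in GABA-treated mice. On the same scale Cxcl2 reached 9.24%, 24.2% and 38.6%, Cxcl9 10.3%, 16.7% and 14.1%, Cxcl10 13.4%, 36.3% and 13.8%, and Cxcl16 4.97%, 10.3% and 7.03%. The scarce members reached 7.65%, 102% and 66.0% for Cxcl1, 0%, 14.8% and 19.1% for Cxcl3, and 0%, 1.25% and 15.3% for Pf4, so Cxcl1 was not lower in muMt-/- CD8 libraries than in TAM libraries on this scale. Without muMt-/- replicate 1, left out after seeing the data, the muMt-/- values were 5.92% for the markers, 10.7% for Cxcl2, 14.5% for Cxcl9, 34.9% for Cxcl10, 6.11% for Cxcl16, 71.2% for Cxcl1, 10.8% for Cxcl3 and 1.5% for Pf4. The WT percentages also rest on single libraries, which were not left out. WT replicate 6 held 15 of the 19 Cxcl2 molecules. WT replicate 5 held 7 of the 9 Cxcl16 and 23 of the 44 Cxcl10 molecules. Its marker sum was 98.5, against at most 26.4 in the other WT libraries.

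Over the 18 CD8 libraries, each of the 4 members tested was correlated with the mean log2 level of the macrophage markers, 4 relations in all. For Cxcl2 r was 0.803 (permutation p = 4e-05, adjusted p = 0.00016) and rho 0.824 (adjusted p = 0.00012), with 0.733 on deviations from the group means and 0.699 without the 2 libraries farthest from the marker median. For Cxcl16 r was 0.773 (adjusted permutation p = 0.00056) and rho 0.810 (adjusted p = 0.00016), with 0.760 within groups and 0.691 without those 2 libraries. CD8 libraries with more macrophage marker RNA thus held more of these chemokines. For Cxcl9 r was 0.619 (adjusted permutation p = 0.00839) and rho 0.612 (adjusted p = 0.00859), with 0.612 within groups and 0.436 without the 2 libraries. For Cxcl10 r was 0.595 (adjusted permutation p = 0.0105) and rho 0.659 (adjusted p = 0.00521), with 0.674 within groups and 0.533 without them. The part that macrophage RNA has in the CD8 values was not tested beyond these correlations.

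Receptor and interferon genes of the CD8 cells carried no called change, with 0 genes of each list called by edgeR in the 3 CD8 comparisons. Cxcr6 had medians of 20.0, 24.8 and 18.1 and Cxcr3 of 2.92, 0.942 and 2.10 in WT, muMt-/- and GABA-treated mice. Ifng had medians of 262, 202 and 398, with a log2 fold change of -0.05 (SE 0.27, adjusted p = 0.998) from WT to muMt-/- and 1.02 (SE 0.27, adjusted p = 0.999) with GABA treatment. From WT to muMt-/- the interferon-gamma list had a median of 0.35 over 11 genes, the NF-kB list 0.11 over 15, the receptors -0.24 over 4 and the shedding proteases 1.26 over 2, while 0 of 8 other CXC ligands could be tested. The median of all genes there was 0.155 by TMM and 0.059 by size factors.

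The difference in response between TAMs and CD8 cells was tested in a joint fit of the 36 libraries, taken as independent. From WT to muMt-/- edgeR called 0 of 7 members and 0.0118% of genes, with 2 members at an unadjusted p under 0.05 against 10.1% of genes, and DESeq2 called 0 of 7 against 0.106%, giving Cxcl1, Cxcl3 and Pf4 no adjusted p. With GABA treatment edgeR called 0 of 7 and 0% of genes, with 2 at an unadjusted p against 4.53%, and DESeq2 called 0 of 7 and 0%. For Cxcl10 the difference was -1.45 (SE 0.60, adjusted p = 0.395) from WT to muMt-/- and 1.38 (SE 0.59, adjusted p = 0.994) with GABA treatment. The other members at an unadjusted p under 0.05 were Cxcl1 from WT to muMt-/-, at -2.77 (SE 1.34, adjusted p = 0.470), and Pf4 with GABA treatment, at -3.11 (SE 1.4, adjusted p = 0.994), and each rests on a CD8 group with 1 molecule. For Cxcl2 it was -1.09 (SE 0.80, adjusted p = 0.672) and -0.74 (SE 0.63, adjusted p = 0.994), so the Cxcl2 response of TAMs is not shown to differ from that of CD8 cells. All genes had a median difference of -0.30 from WT to muMt-/- by TMM and -0.11 by size factors.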

How the data were processed

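The authors aligned reads with STAR to mm10 with the refFlat annotation and counted molecules by barcode. The deposited table gives these counts, whole numbers of distinct molecules per gene and library, without spike-in rows. The members and gene lists were chosen with earlier results of these data known. Tests were edgeR 4.0.16 quasi-likelihood F-tests with TMM scaling in R 4.3.3, in 1 fit per cell type, on genes with a mean normalised number (DESeq2 1.42.0 size factors) above 1, and a joint fit of the 36 libraries gave TAM against CD8 ratios and differences. P-values were adjusted by Benjamini-Hochberg over all genes tested, with a threshold of 0.05, and standard errors are the log2 fold change over the square root of F. Correlations used log2(normalised number + 1) and 2-sided permutation tests with 100000 permutations in scipy 1.17.1. From each list (other CXC ligands, receptors, interferon-gamma, NF-kB, shedding proteases, cell type markers) genes past the threshold were named, or else the 3 with the highest mean. Alternatives were DESeq2's scaling and Wald test, other filters, only the compared libraries, a replicate block, other library sizes and leaving out each library. The fits were tested on simulated data.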

Additional observations from a re-analysis of the deposited data

Results flagged for a closer look

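Of 33 groups of 6 libraries tested for a library far from the others, 4 held one, and chance alone marks about 1 in 20 groups. The distance was judged by the gap to the nearest library over the group's range. Pf4 was at 2.01 in TAMs of GABA replicate 5, while the other libraries of that group ranged from 17.4 to 25.2. Cxcl2 was at 58.66 in CD8 muMt-/- replicate 1, above a range of 0.833 to 10.6, and Cxcl16 was at 10.11 in the same library, above a range of 0.818 to 3.71. That library also had the highest macrophage marker sum of the CD8 libraries, 480, and the highest neutrophil marker sum, 26.3. Cxcl16 was at 8 in CD8 WT replicate 5, where the other WT libraries ranged from 0 to 2.21 and where the macrophage marker sum, 98.5, was the highest of the WT CD8 libraries. The part of those markers in these values was not tested.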

How the results depend on the processing

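Cxcl2 was called between muMt-/- and WT TAMs under every scaling, filter and test tried, with adjusted p-values of 0.000142 to 0.0136. It was also called in 11 of 12 fits that left out a library, with log2 fold changes of 0.76 to 0.99 and adjusted p-values of 0.00622 to 0.0531 over the 12. The exception, 0.0531, was the fit without TAM WT replicate 1, in which 0 members were called. Cxcl3 had log2 fold changes of 1.81 to 2.91 and adjusted p-values of 0.0113 to 0.122 in those fits, and it passed in 3 of 12. Its adjusted p was 0.103, 0.0881, 0.0995, 0.0843 and 0.0542 without TAM WT replicates 1, 2, 3, 4 and 5, and 0.122, 0.105, 0.0935 and 0.0822 without TAM muMt-/- replicates 2, 3, 4 and 6. The count of members called ranged from 0 to 2 over these fits. It was 3 with no filter, where Cxcl10 was called too (adjusted p = 0.00261), 1 by DESeq2, which gave Cxcl3 no adjusted p, and 1 with edgeR's filterByExpr, which drops Cxcl3.

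Between GABA-treated and untreated muMt-/- TAMs the count ranged from 0 to 1 over the fits without a library. Cxcl2 was called without TAM muMt-/- replicate 5 (adjusted p = 0.0438) and without TAM GABA replicate 1 (adjusted p = 0.0217), with a range of 0.0217 to 0.346. The count was 1 by DESeq2 and 1 with no filter (Cxcl2, adjusted p = 0.000775), and 3 at DESeq2's unadjusted p, the study's criterion. With no filter the count was also 1 in TAMs between GABA-treated and WT mice (Cxcl10), 1 from WT to muMt-/- (adjusted p = 0.000221) and 1 from WT to GABA-treated mice (adjusted p = 0.00101) in CD8 cells (Cxcl2), and 1 for the difference between cell types from WT to muMt-/- (Cxcl10). That setting also called more genes in all, 343 instead of 194 from WT to muMt-/- TAMs and 72 instead of 0 in CD8 cells. At DESeq2's unadjusted p the count was 1 between GABA-treated and WT TAMs, 1 from WT to muMt-/- and 1 with GABA treatment in CD8 cells. The cause of these changes was not tested.

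In CD8 cells leaving out 1 library gave Cxcl2 log2 fold changes of 0.85 to 3.54 from WT to muMt-/- and 1.43 to 3.42 from WT to GABA-treated mice, with 0 members called. The lowest were without muMt-/- replicate 1 and GABA replicate 1, and the highest were both without WT replicate 6.

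Signs turned for values near 0 or resting on groups at 0. Cxcl9 with GABA treatment in TAMs had -0.00206 with DESeq2's size factors, -0.00105 by DESeq2 and -0.00311 with filterByExpr, and Cxcl2 between GABA-treated and WT TAMs had -0.00306 with no filter. The differences between cell types from WT to muMt-/- were 1.54 for Cxcl3 and 0.796 for Pf4 by DESeq2. On deviations from the group means the TAM correlations of Cxcl1 with Cxcl9 and Pf4 were -0.0803 and -0.0169 and those of Cxcl3 with Cxcl9 and Cxcl16 were 0.00709 and 0.0846, and without the 2 farthest libraries Cxcl3 with Cxcl9 had 0.0386. The cause was not tested.

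Libraries with the same replicate number did not pair by the rule used: none of 15 pairs of groups, within and between cell types, had all 6 same-number correlations above 0.1. For TAMs and CD8 cells of the same group the medians were 0.0148 in WT, 0.0354 in muMt-/- and 0.0367 in GABA-treated mice, and these correlations neither show nor exclude a shared mouse. With a replicate block edgeR called 2 members from WT to muMt-/- TAMs and 0 in the other TAM and CD8 comparisons, 5 in WT TAMs against CD8 cells and 0 for both differences between cell types, and Cxcl9 with GABA treatment had -0.00739. Low depth limits the CD8 values of Cxcl1, Cxcl3 and Pf4. With equal library sizes, which leave uncorrected that WT TAM libraries held 1468266 molecules and WT CD8 libraries 262840, Cxcl1 and Cxcl3 were called higher in TAMs (adjusted p = 8.21e-06 and 0.000745), so these calls say nothing of levels apart from depth.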

Other observations

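The tumour and stroma markers, among which collagens dominate, summed to 15.0 to 575 in WT TAMs, 15.0 to 236 in muMt-/- TAMs and 59.1 to 304 in TAMs of GABA-treated mice, with Col3a1 the most abundant. Of the 5 tested from WT to muMt-/-, Cdh1, which encodes E-cadherin, was called, with a log2 fold change of 1.11 (SE 0.28, adjusted p = 0.0287), while the other 4 log2 fold changes lay below 0 and the median was -0.34. Epcam, Krt18 and Krt19 were at 0 in both groups. B cell markers were near 0 in TAMs, with 1 of 6, Cd79b, detected in WT and muMt-/- mice. Dendritic cell markers had median sums of 0.695 in WT, 3.2 in muMt-/- and 2.29 in GABA-treated TAMs, with a highest sum of 8.84. Of 7 dendritic cell markers 2 were tested from WT to muMt-/- and 0 were called by edgeR, with Ccr7 at a log2 fold change of 3.71 (SE 1.17, adjusted p = 0.0864) and Clec9a at 1.05 (SE 0.72, adjusted p = 0.530), and whether this bears on Cxcl2 and Cxcl3 was not tested. Endothelial markers summed to at most 23.5 in WT TAMs, in replicate 1, which also had the lowest Cxcl2 and the highest Cxcl9 and Cxcl10 of the WT TAM libraries and without which Cxcl2 had an adjusted p of 0.0531. Whether these are related was not tested. In CD8 cells the dendritic list was carried by Ccr7, which T cells also express.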
